A study of Mus musculus with 20 samples.

Results

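Foxp3+ regulatory T cells (Tregs) carry a small set of transcripts that set them apart from other CD4+ T cells, and 7 of these genes were followed here in donor T cells with and without *Dnmt3a*. They were looked up by symbol, and values were analysed for 6 of them, *Ikzf2*, *Ikzf4*, *Lrrc32*, *Nrp1*, *Gpr83* and *Itgb8*, out of 17101 genes. *Foxp3* was not analysed here. RNA-Seq was performed on splenic donor T cells sorted on day +10 after a haploidentical C57BL/6-to-F1 bone marrow transplant, in 20 libraries with 4 per group. Donors were 6 to 12 weeks old and recipients 8 to 12 weeks old. KO T cells came from donors in which both *Dnmt3a* alleles were floxed and Cre was driven by the *Cd4* promoter, so that the deletion takes place at the CD4-expressing stage in the thymus in both CD4+ and CD8+ lineages and is not restricted to Tregs. WT T cells came from littermates. KO cells were sorted as CD4+, CD8+ and CD4+CD8+ double-positive (DP) cells from animals 1 to 4, and WT cells as CD4+ and CD8+ cells from animals 2, 3, 5 and 6. All cells had been transferred into irradiated recipients, and no untransplanted cells were included. DP cells of WT origin were not analysed here. The sorting gates took whole subsets, so each value is an average over Tregs and the other T cells of the gate. The labels give each library a number, written here as an animal because libraries of the same genotype and number deviated together across genes, but they do not state that it marks an animal or a separate transplant, and p-values measure the spread between these samples.

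The genes have distinct roles in Tregs. *Ikzf2* encodes Helios and *Ikzf4* encodes Eos, zinc-finger transcription factors of the Ikaros family, and Eos acts as a corepressor with Foxp3. *Lrrc32* encodes GARP, which holds latent TGF-beta on the cell surface, and *Itgb8* encodes the beta chain of an integrin that frees the active cytokine from it. *Nrp1* encodes neuropilin-1, a coreceptor for semaphorins and VEGF that marks many thymus-derived Tregs, and *Gpr83* encodes a G protein-coupled receptor enriched in Tregs. None of them is exclusive to Tregs. Helios, neuropilin-1 and GARP are also found on activated T cells and on other cell types. DNMT3A adds methyl groups to cytosines of CpG dinucleotides, and stable Treg identity is known to depend on unmethylated regulatory regions of Treg genes.

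Between 37547651 and 46966318 reads fell on genes in each library. Genes with at least 1 read numbered 14421 to 14677 in the WT libraries and 13203 to 14198 in the KO libraries, except 11783 in DP cells of KO animal 3. *Dnmt3a* itself stood at 1578 ± 129 normalized counts (SD, n = 4) in KO CD4+ and 4901 ± 201 in WT CD4+ libraries, and at 1618 ± 302 in KO CD8+ and 3665 ± 140 in WT CD8+ libraries. Normalized counts are reads divided by 1 factor per library. Fold changes are differences of group means on the log2(normalized count + 1) scale. For low genes they can lie below the ratio of means, or above it where single libraries are at 0. T cell markers were present throughout, and no marker gene of the T cell list was at 0 in any group. The sum of the CD4 lineage markers (*Cd4*, *Zbtb7b*) was 51465 to 84173 in the CD4+ libraries, 1848 to 3632 in the CD8+ libraries and 10606 to 17808 in the DP libraries, and that of the CD8 lineage markers (*Cd8a*, *Cd8b1*, *Runx3*) was 7170 to 16122 in the CD4+ libraries and 93939 to 122204 in the CD8+ and DP libraries.

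On the GRCm38.p6 assembly, *Ikzf2* lies at chr1:69531207-69687351, *Ikzf4* at chr10:128630839-128669671, *Lrrc32* at chr7:98489305-98501831, *Nrp1* at chr8:128358591-128505476, *Gpr83* at chr9:14859880-14870789 and *Itgb8* at chr12:119162803-119238276. The promoters of *Itgb8* and *Nrp1* are printed because *Itgb8* differed between WT CD4+ and WT CD8+ cells and *Nrp1* did not pass that test, while their CpG content was close. Each sequence is the 250 bases before a transcription start in RefSeq, 5′ to 3′ on the strand of the gene, with CpG dinucleotides in capitals. *Itgb8* is read from the minus strand of chr12:119238277-119238526 and *Nrp1* from the plus strand of chr8:128358823-128359072. The *Nrp1* stretch lies inside the gene span given above, before a start downstream of the beginning of that span.
Itgb8: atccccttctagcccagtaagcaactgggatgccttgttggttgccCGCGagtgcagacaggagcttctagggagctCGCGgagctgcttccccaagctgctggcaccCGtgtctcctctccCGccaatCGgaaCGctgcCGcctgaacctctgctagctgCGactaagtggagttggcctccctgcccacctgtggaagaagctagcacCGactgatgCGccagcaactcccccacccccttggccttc
Nrp1: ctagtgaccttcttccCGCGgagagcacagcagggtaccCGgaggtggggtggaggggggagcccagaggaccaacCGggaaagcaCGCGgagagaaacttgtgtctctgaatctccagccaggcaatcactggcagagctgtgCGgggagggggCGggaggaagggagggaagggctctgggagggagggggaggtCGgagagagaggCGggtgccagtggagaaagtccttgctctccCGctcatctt
The *Itgb8* stretch held 12 CpG dinucleotides and the *Nrp1* stretch 11. Of 32851 RefSeq promoters of this length, 33.5% held at least 12 and 35.6% at least 11, 92.1% held at least 1, and the median was 6. The *Gpr83* promoter, at chr9:14859960-14860209 and likewise inside its gene span, held 18, a number reached by 21.7% of promoters. Promoter sequences were available for 3 of the 6 genes. Methylation of these stretches was not analysed here.

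Levels per length of transcript spanned a wide range (mean normalized count per kb of RefSeq exon, n = 4). In WT CD4+ cells the order was *Nrp1* at 1342, *Ikzf2* at 508, *Ikzf4* at 33.5, *Lrrc32* at 22.7, *Itgb8* at 17.1 and *Gpr83* at 2.42 per kb. The libraries of *Lrrc32* and *Itgb8* overlapped in this order, and those of the other neighbours did not. KO CD4+ cells had *Nrp1* at 1072 per kb and *Ikzf2* at 340, followed by *Lrrc32* at 30.2, *Ikzf4* at 29.3, *Gpr83* at 8.61 and *Itgb8* at 7.45, and among neighbours the libraries of *Ikzf2* and *Lrrc32* and those of *Ikzf4* and *Gpr83* did not overlap. Exon lengths were those of RefSeq and can differ from the gene models that were counted.

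**Figure D1:**
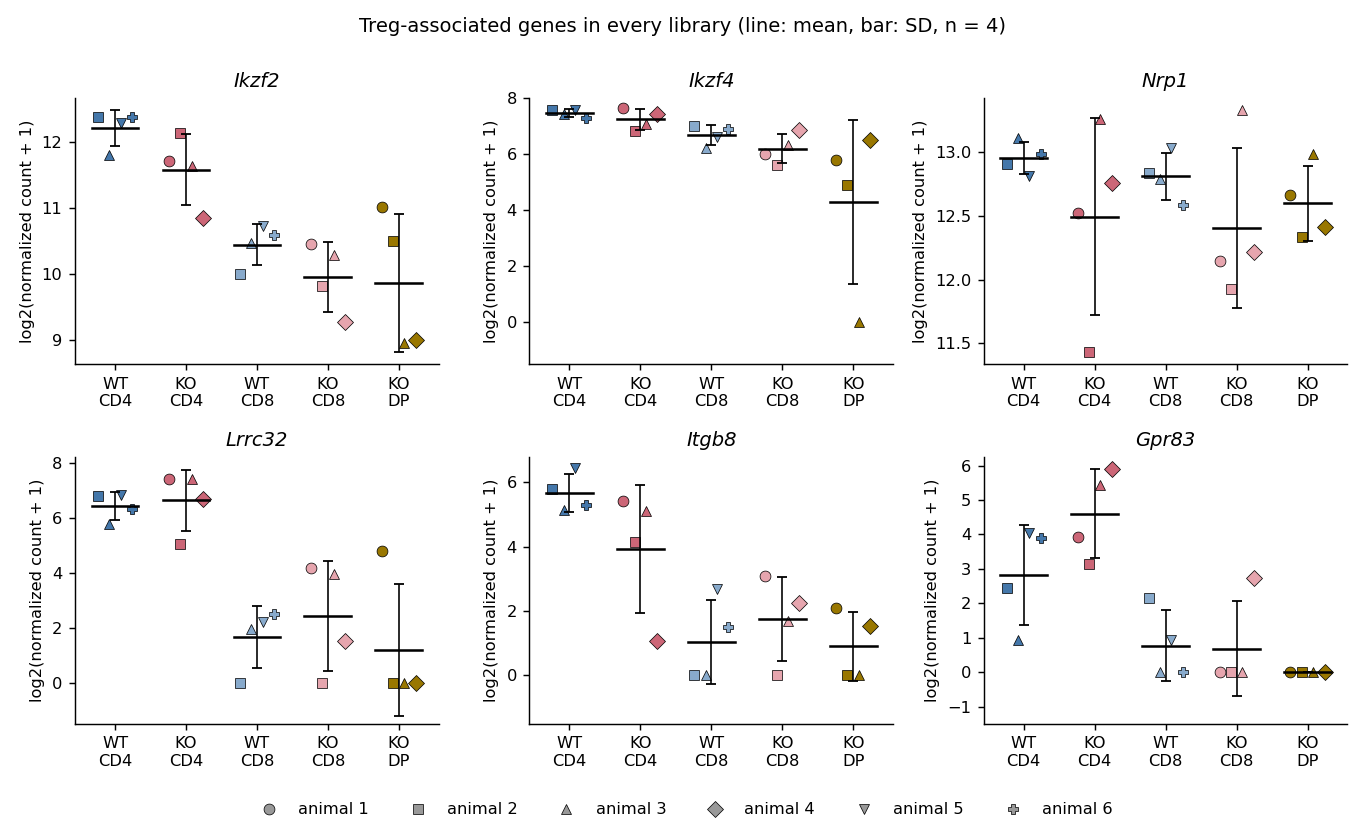
Points show log2(normalized count + 1) of 6 Treg-associated genes in each of 20 libraries, with the marker shape giving the animal, horizontal lines the group mean and bars the SD (n = 4). *Ikzf2*, *Lrrc32* and *Itgb8* were higher in WT CD4+ than in WT CD8+ libraries without overlap, *Nrp1* overlapped between all 5 groups, and KO and WT CD4+ libraries overlapped for all 6 genes. Vertical scales differ between genes and do not all start at 0.

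The first comparison addressed whether loss of *Dnmt3a* changed these transcripts in CD4+ donor cells, where Tregs reside. None of the 6 genes passed the test between KO CD4+ and WT CD4+ cells (limma with a mean-variance trend, Benjamini-Hochberg adjusted p below 0.05), where 18.4% of 12391 genes did. At an unadjusted p below 0.05, 1 of the 6 passed against 36.4% of all genes, and none had groups free of overlap against 25.6% of all genes. Across the 6, 4 estimates lay below 0 and 2 above it, with a median log2 fold change of -0.34 beside -0.05 over all genes tested.

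*Ikzf2* came closest to the threshold. It stood at 3344, 4475, 3157 and 1844 normalized counts in KO CD4+ animals 1 to 4 (3205 ± 1078) and at 5281, 3559, 5002 and 5306 in WT CD4+ animals 2, 3, 5 and 6 (4787 ± 830). The highest KO library lay above the lowest WT library, and the other 3 KO libraries lay below all WT libraries. The log2 fold change was -0.63 (SE 0.23, 95% interval -1.15 to -0.11), an estimate 1.55-fold lower in KO, with an adjusted p of 0.0832 from limma and an exact permutation p of 0.0571 (2-sided, smallest possible 0.0286). The gene was called by DESeq2 on whole reads (adjusted p = 0.0478) and by limma without KO CD4+ animal 2 (log2 fold change -0.81, adjusted p = 0.0237). Without KO CD4+ animal 4 the estimate came to -0.39 (adjusted p = 0.127), and over all 8 fits that left out 1 library the adjusted p reached 0.193. In these bulk libraries, fewer Helios-expressing cells in the gate and less *Ikzf2* RNA per cell cannot be told apart, and the same holds for the other genes. *Ikzf4* stood at 196, 111, 133 and 172 in KO CD4+ and at 187, 170, 188 and 155 in WT CD4+ libraries. Here the KO range enclosed the WT range, and the log2 fold change was -0.22 (95% interval -0.73 to 0.28, adjusted p = 0.498 with limma).

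The pair that handles latent TGF-beta did not pass either. *Lrrc32* stood at 168, 32.4, 172 and 103 normalized counts in KO CD4+ and at 110, 54.1, 114 and 79.0 in WT CD4+ libraries (119 ± 65.8 and 89.3 ± 28.1). KO animals 1 and 3 lay above all WT libraries and KO animal 2 below them. The log2 fold change was 0.21 (95% interval -0.91 to 1.34, adjusted p = 0.778 with limma), and its sign turned without KO animal 1 (-0.037), KO animal 3 (-0.047) or WT animal 3 (-0.0034). *Itgb8* stood at 41.1, 16.7, 33.4 and 1.10 in KO CD4+ and at 54.6, 33.9, 85.5 and 37.7 in WT CD4+ libraries. KO animal 1 lay within the WT range, and the other 3 KO libraries lay below it, the lowest resting on 1 read. Its log2 fold change was -1.73 (95% interval -3.62 to 0.17, adjusted p = 0.171 with limma, exact permutation p = 0.114), and -0.78 without KO animal 4.

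Among the surface receptors, *Nrp1* had the higher level. It stood at 5886, 2758, 9817 and 6927 normalized counts in KO CD4+ (6347 ± 2914) and at 7666, 8840, 7182 and 8104 in WT CD4+ libraries (7948 ± 704). The KO libraries lay on both sides of the narrow WT range. Its log2 fold change was -0.46 (95% interval -1.13 to 0.21, adjusted p = 0.295 with limma), and -0.10 without KO animal 2. *Gpr83* stood at 14.3, 7.86, 42.0 and 59.3 in KO CD4+ and 4.46, 0.917, 15.5 and 13.8 in WT CD4+ libraries. These values rest on 8 to 54 reads in KO and 1 to 16 reads in WT libraries, and 2 KO libraries (animals 3 and 4) lay above all WT libraries. The log2 fold change was 1.78 (SE 0.87, 95% interval including 0, adjusted p = 0.167 with limma, exact permutation p = 0.143), and it came to 1.01 with a pseudocount of 10. *Gpr83* reached the minimum mean of 10 for the test only through its KO CD4+ libraries, so its direction was fixed by that filter.

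**Figure D2:**
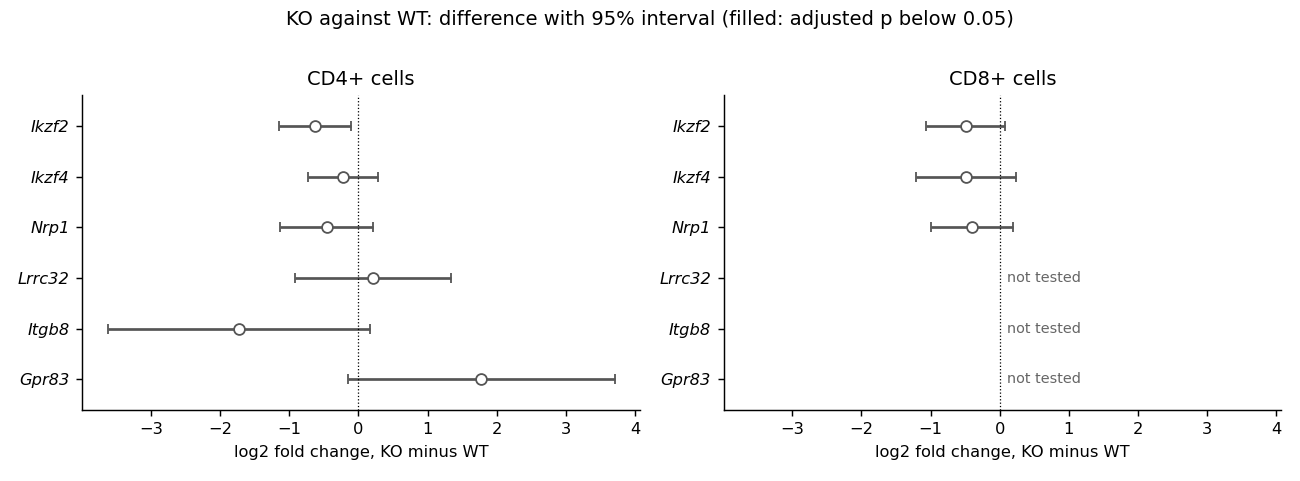
Points show the log2 fold change, KO minus WT, of each gene in CD4+ cells (left) and CD8+ cells (right), with 95% intervals from limma (4 libraries against 4). Filled points would mark an adjusted p below 0.05, and there are none. The intervals include 0 for all genes shown except *Ikzf2* in CD4+ cells (-1.15 to -0.11), and 3 genes were not tested in CD8+ cells because of low levels.

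The spread between animals bears on these intervals. The SD of the log2 level of *Nrp1* was 0.773 in KO CD4+ and 0.127 in WT CD4+ libraries, and that of *Ikzf2* was 0.533 and 0.275. Over genes with a mean of at least 1000 in the group, the median SD was 0.168 in KO CD4+ and 0.0892 in WT CD4+ libraries. The summed level of the T cell marker list was 194179 to 253319 in KO CD4+ and 207830 to 230396 in WT CD4+ libraries. Among all genes tested, 8.59% rose and 9.77% fell in KO CD4+ libraries, the shares to set beside the marker counts that follow. Of markers of other cells that can express these genes, 4 of 7 tested dendritic cell markers fell in KO CD4+ libraries (*Flt3*, *Zbtb46*, *Xcr1*, *Clec9a*) and none rose, with summed levels of 4561 to 6440 in KO and 5111 to 5974 in WT. Megakaryocyte and platelet markers, relevant to *Lrrc32*, fell in 3 of 5 tested (*Pf4*, *Ppbp*, *Itga2b*), with sums of 7238 to 11760 and 7314 to 8407. The endothelial list, relevant to *Nrp1*, had 1 riser (*Pecam1*) and 1 faller (*Vwf*) among 3 tested, and *Tek* was at 0 in both groups. Its sums did not overlap and were higher in KO, at 5798 to 8609 against 3807 to 5164 in WT. Summed myeloid markers did not overlap either and were lower in KO, at 1227 to 1715 against 1725 to 2210 in WT CD4+ libraries. Of 8 tested, 2 fell (*Lyz2*, *Adgre1*). Neutrophil markers summed to 5.89 to 4211 in KO and 2294 to 3507 in WT, and 1 of 7 fell (*Ltf*, list median -4.12). Among 3 tested B cell markers, 2 rose (*Cd79a*, *Cd79b*), with sums of 1650 to 2151 and 1258 to 1681, and *Ms4a1* was at 0 in WT. Erythroid markers summed to 11.8 to 256 and 173 to 783 with none of 3 called, NK cell markers to 567 to 1779 and 746 to 1598 with 1 riser of 3 (*Klrb1c*), and immature thymocyte markers to 10965 to 14655 and 12896 to 14803 with none of 2 called, and *Ncr1*, *Rag1* and *Arpp21* were at 0 in both groups. Their part in the values of the Treg genes was not tested.

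In CD8+ cells, *Ikzf2*, *Ikzf4* and *Nrp1* had enough signal to be tested, and none passed between KO and WT, where 25.2% of 12383 genes did. None of the 3 had an unadjusted p below 0.05 with limma, against 39.5% of all genes, and 0 were called by edgeR or DESeq2. *Ikzf2* stood at 1402, 897, 1247 and 615 normalized counts in KO CD8+ and at 1027, 1411, 1682 and 1532 in WT CD8+ libraries. The groups overlapped, with a log2 fold change of -0.49 (95% interval -1.06 to 0.08, adjusted p = 0.184 with limma). *Ikzf4* stood at 62.1, 47.4, 79.6 and 114 in KO CD8+ and at 127, 72.9, 95.3 and 119 in WT CD8+ libraries, with a log2 fold change of -0.49 as well (95% interval -1.21 to 0.24, adjusted p = 0.289). *Nrp1* stood at 4538, 3885, 10320 and 4761 in KO CD8+ and at 7297, 7089, 8364 and 6148 in WT CD8+ libraries. KO animals 1, 2 and 4 lay below all WT libraries and KO animal 3 above them. The log2 fold change was -0.40 (SE 0.26, 95% interval including 0, adjusted p = 0.284), and without KO CD8+ animal 3 it was -0.71 with an adjusted p of 0.00267. No *Lrrc32*, *Itgb8* or *Gpr83* value in CD8+ cells exceeded 17.1 in KO or 5.39 in WT libraries, with exact permutation p of 0.6, 0.486 and 1 between KO and WT (2-sided).

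The KO-to-WT difference was not shown to differ between CD4+ and CD8+ cells for any of the 6 genes. In the genotype by subset interaction over 16 libraries, none of the 6 was called, beside 0.0161% of 12446 genes, and none had an unadjusted p below 0.05 with limma, against 6.37% of all genes, or was called by edgeR or DESeq2. Estimates, KO minus WT in CD4+ less the same in CD8+ cells, ran from -2.44 for *Itgb8* (95% interval -5.26 to 0.38, adjusted p = 0.894 with limma) to 1.86 for *Gpr83*. Of the groups in this test, only KO CD4+ had a mean of at least 10 for *Gpr83*.

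The subsets were then compared within each genotype. In WT cells, 4 of the 5 genes tested were higher in CD4+ than in CD8+ cells, beside 22.3% of 12559 genes that were higher in CD4+ cells and 44.5% that differed in either direction. These 4 had no overlap between the groups, as did 41.8% of all genes. *Lrrc32* and *Itgb8* reached the minimum mean of 10 for the test only through their CD4+ libraries, so their direction was fixed by that filter. *Ikzf2* was higher by 1.76 on the log2 scale (4787 ± 830 against 1413 ± 280, adjusted p = 6.03e-07 with limma), and its lowest CD4+ library exceeded its highest CD8+ library. *Lrrc32* averaged 89.3 ± 28.1 in WT CD4+ and stood at 0, 2.88, 3.59 and 4.63 in WT CD8+ libraries, a ratio of means of 32.1 (361 reads against 12). Its log2 difference was 4.77 (adjusted p = 1.82e-05) and 2.92 with a pseudocount of 10. *Itgb8* averaged 52.9 ± 23.5 in WT CD4+ and stood at 0, 0, 5.39 and 1.85 in WT CD8+ libraries, a ratio of means of 29.2 (215 reads against 8), with a log2 difference of 4.61 (adjusted p = 0.000123) that came to 2.37 with a pseudocount of 10. *Ikzf4* was higher by 0.78 (175 ± 15.8 against 104 ± 24.5, SE 0.20, adjusted p = 0.00563), a call that was lost when all 20 libraries were fitted together (adjusted p = 0.657). *Nrp1* differed by 0.14 (95% interval -0.04 to 0.32, adjusted p = 0.192), and passed without WT CD8+ animal 5 (0.22, adjusted p = 0.0412). *Gpr83* stood at 3.49, 0, 0.899 and 0 in WT CD8+ libraries, under the mean required for the test.

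In KO cells the same contrast called 2 of 6 genes, beside 2.73% of 12189 genes higher in CD4+ cells and 4.22% called in either direction. *Lrrc32*, *Gpr83* and *Itgb8* reached the minimum mean of 10 only through their KO CD4+ libraries, so their direction was again fixed by the filter. *Ikzf2* was higher in KO CD4+ than KO CD8+ cells by 1.62 (3205 ± 1078 against 1040 ± 354, adjusted p = 0.0190 with limma), without overlap, as in 10.1% of all genes. This call was lost without KO CD4+ animal 1 or 3 or KO CD8+ animal 2, where the adjusted p was at most 0.0608. *Lrrc32* stood at 17.1, 0, 14.6 and 1.89 in KO CD8+ libraries and was higher in KO CD4+ cells by 4.23 (adjusted p = 0.0441). It held in 3 of the 8 fits that left out 1 library (without KO CD4+ animal 2, KO CD8+ animal 1 or KO CD8+ animal 3), and the highest adjusted p among the others was 0.14. With the animal as a block, 4 of 6 were called, beside 2305 of 12189 genes in either direction. Here *Ikzf4* was higher in CD4+ cells by 1.05 (adjusted p = 0.152, and 0.0238 with the block) and *Gpr83* by 3.92 (adjusted p = 0.0574, and 0.0106 with the block), with *Gpr83* at 0, 0, 0 and 5.68 in KO CD8+ libraries. Without KO CD8+ animal 4, the only one of them above 0, *Gpr83* passed without the block too (adjusted p = 0.0397). *Itgb8* stood at 7.50, 0, 2.24 and 3.79 in KO CD8+ libraries, and its log2 difference of 2.17 did not pass (adjusted p = 0.417, and 0.174 with the block). *Nrp1* differed by 0.09 (95% interval -0.80 to 0.97, adjusted p = 0.956).

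**Figure D3:**
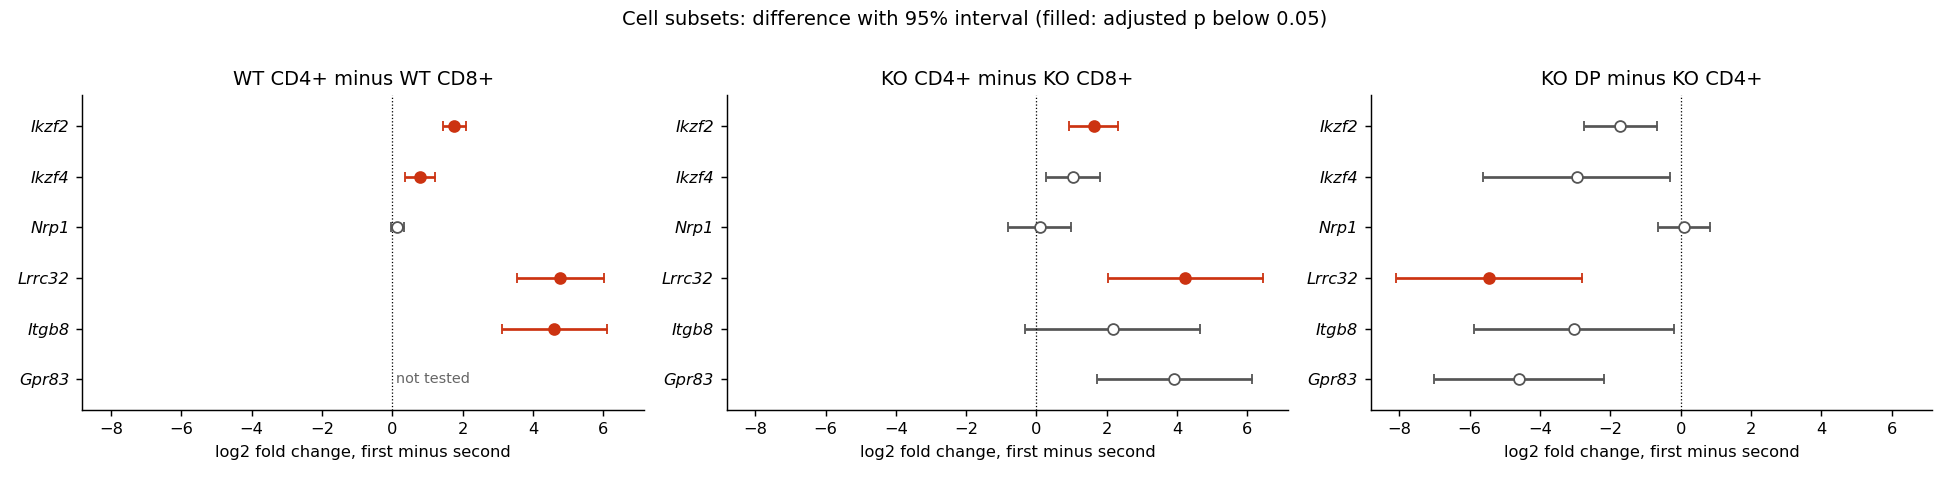
Points show log2 differences with 95% intervals from limma (4 libraries against 4) for 6 genes in WT CD4+ minus WT CD8+ (left), KO CD4+ minus KO CD8+ (middle) and KO DP minus KO CD4+ cells (right), filled where the adjusted p was below 0.05. The intervals of *Lrrc32*, at 4.77, 4.23 and -5.45, lie clear of 0 in all 3 panels. Its direction was fixed by the filter in each, as it reached the minimum mean for the test only through its CD4+ libraries. The same holds for *Itgb8* in all 3 panels and for *Gpr83* in the middle and right panels. *Nrp1* lies within 0.14 of 0 in each panel.

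The DP population, which carries both coreceptors, was compared with each single-positive KO subset. *Ikzf2* stood at 2054, 1444, 495 and 509 normalized counts in DP cells of animals 1 to 4, *Ikzf4* at 53.9, 28.4, 0 and 88.2, and *Nrp1* at 6487, 5174, 8104 and 5443. *Lrrc32* was found in DP cells of animal 1 alone, at 27.0 (25 reads), and at 0 in the other 3. *Itgb8* stood at 3.24, 0, 0 and 1.92, and *Gpr83* at 0 in all 4, where a count of 0 allows up to 3 reads or 3.72 normalized counts. Against KO CD8+ cells, 3 genes were tested and none passed, beside 0.00823% of 12153 genes (1 gene, *Cd4*). None of the 3 had an unadjusted p below 0.05 with limma, against 1.95% of all genes, or was called by edgeR or DESeq2. The log2 differences were -0.09 for *Ikzf2* (95% interval -1.15 to 0.97), -1.90 for *Ikzf4* (-4.65 to 0.85) and 0.19 for *Nrp1* (-0.45 to 0.84).

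Against KO CD4+ cells, 1 of 6 genes was lower in DP cells, beside 1.26% of 12175 genes lower and 1.95% called either way. With the animal as a block 2 of 6 were lower, beside 860 of 12175 genes called in either direction. The direction of *Lrrc32*, *Gpr83* and *Itgb8* was fixed by the filter, as they reached the minimum mean of 10 only through their KO CD4+ libraries. *Lrrc32* was lower by 5.45 on the log2 scale at an adjusted p of 0.0499 from limma (0.0196 with the block), and among fits that left out 1 library the call was kept only without DP animal 1 (adjusted p = 0.00852, at most 0.184 in the others). This log2 difference is 43.7-fold, while the ratio of means, KO CD4+ over DP, was 17.6. *Ikzf2* was lower by 1.71 (adjusted p = 0.105, and 0.0169 with the block). The KO CD4+ mean of *Gpr83* was 8.29-fold the highest level, 3.72 normalized counts, that 3 reads reach in a DP library. Its KO CD4+ libraries ran from 7.86 to 59.3. The groups of *Gpr83* did not overlap, as in 11.2% of all genes, at an adjusted p of 0.0646 with limma. *Ikzf4* (-2.95, adjusted p = 0.291) and *Itgb8* (-3.02, adjusted p = 0.307) did not pass. *Nrp1* differed by 0.11 (95% interval -0.64 to 0.85, adjusted p = 0.894). DP cells of animal 3, the library with the fewest genes detected, held the single 0 for *Ikzf4*, and without it the log2 difference of *Ikzf4* was -1.52.

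Levels followed the KO animal across subsets for *Nrp1*. Animal 3 had the highest *Nrp1* in CD4+ (9817), CD8+ (10320) and DP cells (8104), and animal 2 the lowest in each (2758, 3885 and 5174). *Lrrc32* was lowest in animal 2 in CD4+ cells (32.4) and at 0 there in both other subsets. *Ikzf2* was lowest in animal 4 in CD4+ (1844) and CD8+ cells (615), and DP cells of animals 3 and 4 were alike (495 and 509). The animal numbers marked shared deviations across all genes, with correlations of 0.412 to 0.498 between CD4+ and CD8+ libraries of the same KO animal.

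**Figure D4:**
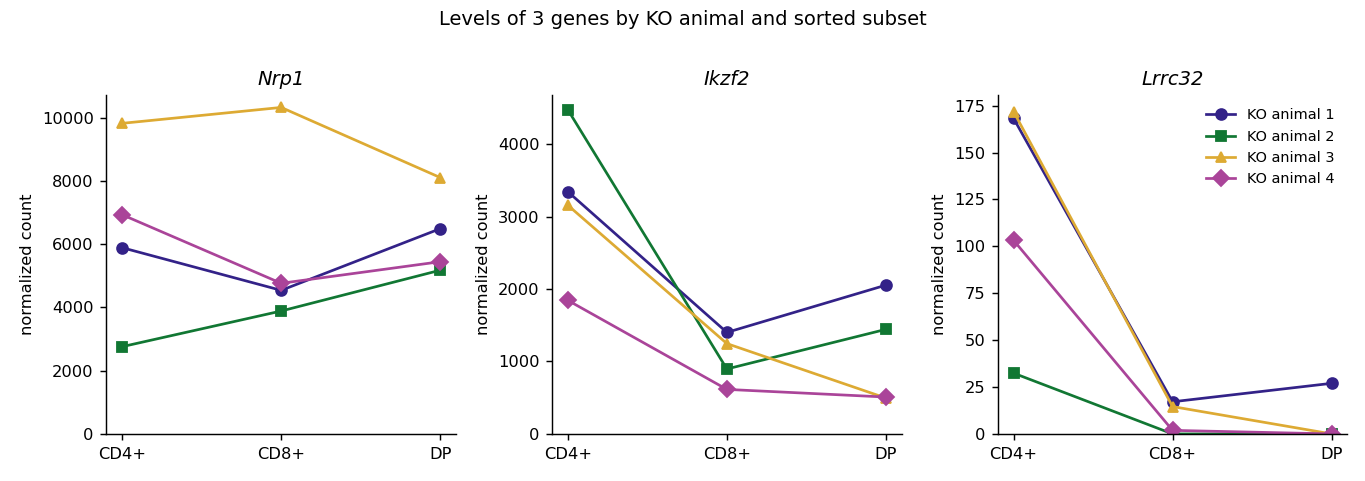
Lines connect the normalized counts of *Nrp1*, *Ikzf2* and *Lrrc32* in CD4+, CD8+ and DP cells of the same KO animal (1 library per point, axes from 0). Animal 3 has the highest and animal 2 the lowest *Nrp1* in all 3 subsets, and *Ikzf2* and *Lrrc32* are highest in CD4+ cells in every animal.

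Further genes of the Treg programme moved in both directions between KO and WT CD4+ cells. Of 32 other genes of the Treg signature, 3 rose, 3 fell and 26 did not pass, with a median log2 fold change of -0.17 beside -0.05 over all genes tested, of which 8.59% rose and 9.77% fell. *Il1rl1*, the IL-33 receptor, rose by 0.54 (5890 ± 653 in KO against 4051 ± 539 in WT, adjusted p = 0.0130 with limma), the inhibitory receptor *Tigit* by 0.55 (adjusted p = 0.0458) and *Fgl2*, a secreted immunosuppressive protein, by 0.48 (adjusted p = 0.0152). *Areg*, the tissue repair factor amphiregulin, fell by 3.18 (6.02 ± 6.49 against 47.3 ± 15.5, adjusted p = 0.0153), *Cd83* by 2.41 (140 ± 80.1 against 663 ± 147, adjusted p = 0.00553) and *Gata3* by 0.28 (adjusted p = 0.0354). *Areg* reached the minimum mean of 10 only through its WT CD4+ libraries, so its direction was fixed by that filter. The best-known surface markers, named outside the naming rule for their role, did not pass. *Il2ra* (CD25) stood at 6077 ± 559 in KO and 5463 ± 688 in WT CD4+ libraries (log2 fold change 0.16, 95% interval -0.07 to 0.39, adjusted p = 0.296). *Ctla4* stood at 7660 ± 2262 and 6806 ± 755 (0.12, -0.32 to 0.56, adjusted p = 0.678). *Tnfrsf18* (GITR) stood at 6726 ± 1389 and 8191 ± 251 (-0.31, -0.59 to -0.02, adjusted p = 0.116), and passed without KO animal 3 (adjusted p = 0.0253). *Izumo1r* (folate receptor 4) stood at 3299 ± 2363 and 3973 ± 729 (-0.64, -1.80 to 0.51, adjusted p = 0.394).

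**Figure D5:**
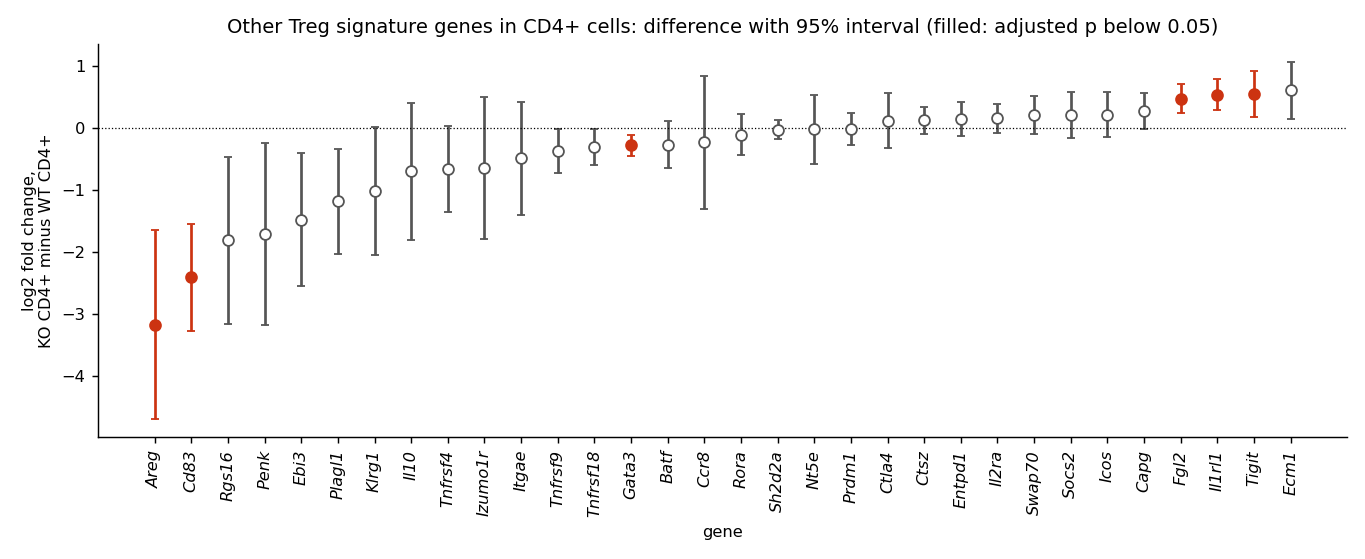
Points show the log2 fold change, KO CD4+ minus WT CD4+, of the 32 other genes of the Treg signature with 95% intervals from limma (4 libraries against 4), ordered by value and filled where the adjusted p was below 0.05. *Areg*, *Cd83* and *Gata3* fell, *Fgl2*, *Il1rl1* and *Tigit* rose, and the other 26 did not pass.

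Between WT CD4+ and WT CD8+ cells, 23 of these 32 genes were higher in CD4+ and 6 in CD8+ cells, with a median log2 difference of 0.99, beside 22.3% of all genes higher in CD4+ cells and 44.5% called in either direction. *Il2ra* was higher in CD4+ cells by 1.17 (adjusted p = 1.61e-06 with limma), *Ctla4* by 0.82 (adjusted p = 1.34e-06), *Tnfrsf18* by 1.45 (adjusted p = 9.65e-11) and *Izumo1r* by 2.68 (adjusted p = 2.45e-08). In KO cells, 8 of 31 tested were higher in CD4+ and 1 in CD8+ cells, with a median of 0.63, beside 2.73% of all genes higher in CD4+ cells and 4.22% called in either direction.

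Genes that regulate or partner Foxp3 were also split. Of 32 tested in CD4+ cells, 3 rose and 7 fell in KO, beside 8.59% and 9.77% of all genes, with a median of -0.11. The chromatin organizer *Satb1* rose by 0.85 (21167 ± 1344 against 11759 ± 1039, adjusted p = 0.000594 with limma), the methyltransferase *Dnmt3b* by 1.08 (1497 ± 97.1 against 707 ± 67.9, adjusted p = 0.000594) and the methyl-CpG-binding *Mbd2* by 0.55 (adjusted p = 0.0113). The largest falls were in activation-induced factors, *Nr4a2* (-1.93, adjusted p = 0.0410), *Crem* (-1.37, adjusted p = 0.0133) and *Nr4a3* (-1.35, adjusted p = 0.0131). The 5 Ikaros family genes, which include *Ikzf2* and *Ikzf4*, did not pass in CD4+ cells (median -0.07).

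Molecules that act with GARP, integrin beta-8 and neuropilin-1 were examined next. Of 21 tested genes of TGF-beta activation and signalling, 4 rose and 1 fell in KO CD4+ cells (median 0.07), beside 8.59% and 9.77% of all genes. The 21 include *Lrrc32* and *Itgb8* themselves. Those called included the ligand *Tgfb3* (0.99, adjusted p = 0.0438 with limma), the proprotein convertase *Furin* (0.54, adjusted p = 0.0391), the receptor *Tgfbr2* (0.40, adjusted p = 0.0325) and the corepressor *Skil* (-0.44, adjusted p = 0.0134). In WT cells 16 of the 21, *Lrrc32* and *Itgb8* among them, were higher in CD4+ than CD8+ cells and 2 lower. This stands beside the same 22.3% of all genes that were higher. *Lrrc32* and *Itgb8* reached the minimum mean of 10 only through their CD4+ libraries, so their direction was fixed by that filter. Of 10 tested semaphorin and neuropilin partners, a list that holds *Nrp1* itself, 5 rose and 2 fell in KO CD4+ cells (median -0.01). Of all genes, 8.59% rose and 9.77% fell. *Sema4a*, a ligand of neuropilin-1, rose by 0.55 (9788 ± 856 against 6664 ± 472, adjusted p = 0.00454), the plexin *Plxnd1* by 0.94 (adjusted p = 0.0152) and the adaptor *Gipc1* by 0.41 (adjusted p = 0.0322). Other plexins, *Plxnb2* (-1.29, adjusted p = 0.0227) and *Plxna1* (-0.58, adjusted p = 0.0381), fell. Against the same shares of all genes, 3 of 13 genes of the IL-2 receptor and STAT5 pathway rose and 1 fell (median 0.16). These were *Bcl2* (1.00, adjusted p = 0.0233), *Il2rb* (0.52, adjusted p = 0.0312), *Jak1* (0.39, adjusted p = 0.0332) and *Jak3* (-0.74, adjusted p = 0.0177).

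Of these 25 named genes, 7 passed in all 8 fits that left out 1 CD4+ library, namely *Il1rl1*, *Cd83*, *Dnmt3b*, *Satb1*, *Mbd2*, *Nr4a3* and *Sema4a*. The other 18 lost the call in at least 1 fit, and all of them did without WT animal 6 (adjusted p up to 0.112). Leaving out KO animals 1, 2, 3 or 4 lost 10, 2, 1 or 4 of the 25 calls, and leaving out WT animals 2, 3 or 5 lost 11, 14 or 11, with adjusted p up to 0.112. All 25 were called with a pseudocount of 10, 19 after quantile normalization, 14 with eBayes without trend and 13 when all 20 libraries were fitted together.

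The genes whose levels ran most like each of the 6 over the 20 libraries were found among 10709 genes with a mean of at least 50, as a description without a test. Libraries of a group share their subset and genotype, and CD4+ and CD8+ libraries share animals. *Ikzf2* ran most like the kinase *Prkd2* (Pearson r = 0.934), the Wnt target *Axin2* (0.907) and *Oas3* (0.907). *Lrrc32* ran most like *Lbh* (0.950), *Ski* (0.924) and *Syt11* (0.923). Among the genes nearest to *Ikzf4* were *Cacnb1* (0.953) and *Hic2* (0.950). *Itgb8* ran most like *Wdfy2* (0.885), *Irf2bp2* (0.881) and *Ppp4r2* (0.879), *Gpr83* like *Elovl5* (0.873), *Zfp281* (0.872) and *Slc52a2* (0.869), and *Nrp1* like *Lcn2* (0.883), *Plod3* (0.851) and *Prmt2* (0.845). Among the 6 themselves, r was 0.848 between *Ikzf2* and *Lrrc32*, 0.835 between *Lrrc32* and *Itgb8* and 0.818 between *Ikzf2* and *Itgb8*. Once group means were removed, these came to 0.583, 0.529 and 0.433. *Nrp1* had r between 0.0068 and 0.261 with each of the others.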

How the data were processed

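RNA was measured in 20 libraries of sorted splenic donor T cells. According to the study's methods, the authors made stranded libraries of poly(A) RNA, mapped the read pairs with STAR (2.7.2b in the submitters' processing notes) to the mm10 genome, counted pairs on exons of UCSC genes by strand and normalized with DESeq2. The deposited values are therefore signal, normalized counts from the authors with 1 factor per library. Undoing the factor returned whole reads for 100% of values (tolerance 1e-06).

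Groups and library numbers came from the labels. limma 3.58.1 (R 4.3.3, eBayes with trend) was fitted on log2(normalized count + 1) to all genes with a mean of at least 10 over the libraries compared, with Benjamini-Hochberg adjustment and a threshold of 0.05. Single genes have 2-sided exact permutation tests. Errors are SDs over 4 libraries, and floors of 3 reads cover counting error only. The calculations were tested on simulated data.

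The genes and lists were chosen with earlier results of these data known, and no p-value was adjusted over a list. Besides the 6 genes, up to 3 genes per direction and list past the threshold between KO and WT CD4+ cells are named, with exceptions stated, as are the 3 genes most correlated with each of the 6. Of these, 1 gene is not reported here. Markers of T, CD4 and CD8 lineage, B, myeloid, dendritic, neutrophil, platelet, endothelial, erythroid, thymocyte and NK cells were summed.

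Each result was recomputed without the filter, with a minimum mean of 50, with 10 in place of 1 as pseudocount, after quantile or 75th percentile scaling, with untrended eBayes, with edgeR 4.0.16 and DESeq2 1.42.0 on whole reads, over all 20 libraries jointly, with a block for the animal, and leaving out single libraries. Equal library numbers, written as animals, were treated as pairs between subsets, where every correlation of deviations from group means exceeded 0.1 (0.412 to 0.498 for KO CD4+ and CD8+, 0.271 to 0.457 for KO CD4+ and DP, 0.338 to 0.538 for KO CD8+ and DP, 0.120 to 0.196 for WT). Positions and promoters are from RefSeq for GRCm38.p6.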

Additional observations from a re-analysis of the deposited data

Results flagged for a closer look

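In 3 of 30 combinations of gene and group, 1 of the 4 libraries stood far from the other 3 (gap to the nearest library over the range above Dixon's critical value). Chance gives about 1 in 20 for continuous values, a rate that does not hold for libraries tied at 0. For *Lrrc32* and *Gpr83* below, 3 libraries at 0 make the gap equal to the range whatever the level of the other. *Gpr83* in KO DP cells, at 0 in all 4 libraries, is among the 30 but could not be flagged. *Ikzf2* was lowest in WT CD4+ animal 3 at 3559 normalized counts, against 5002 to 5306 in the other WT CD4+ libraries, with a gap of 0.852 of the range. *Lrrc32* was highest in KO DP animal 1 at 27.0, against 0 in the other 3 DP libraries. *Gpr83* was highest in KO CD8+ animal 4 at 5.68, against 0 in the other 3 KO CD8+ libraries. Without WT CD4+ animal 3, the log2 fold change of *Ikzf2* between KO and WT CD4+ cells was -0.77 (adjusted p = 0.0789 with limma). Without KO DP animal 1, *Lrrc32* differed between DP and KO CD4+ cells by -6.65 (adjusted p = 0.00852). Without KO CD8+ animal 4, *Gpr83* passed between KO CD4+ and KO CD8+ cells (adjusted p = 0.0397), against 3 KO CD8+ libraries at 0, so no fold is given. No cause was tested.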

How the results depend on the processing

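Over all results and alternatives recomputed, 1284 of 1583 values kept their direction and their side of the threshold, 174 kept the direction but no longer passed, 21 newly passed, 27 turned sign and 77 were counts or values that moved.

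The number of genes called between KO and WT CD4+ cells was 2274, and became 1403 without the trend, 1285 in the joint fit, 26 with the replicate block and 628 to 2963 with 1 library left out. Between KO and WT CD8+ cells it was 3118, then 2014 (joint fit), 89 (block) and 1633 to 4092 (1 library left out). Equal numbers were not shown to pair KO with WT animals (r 0.0696 to 0.0846 in CD4+ and -0.0024 to 0.0990 in CD8+ cells). For unequal numbers r was -0.116 to 0.0873 in CD4+ and -0.119 to 0.129 in CD8+ cells. Only 2 numbers are shared, and whether they mark a shared batch was not tested. With that replicate block, 0 of the 25 named genes of the wider lists were called. For WT CD4+ against CD8+ cells, 5592 became 1595 in the joint fit. For KO CD4+ against CD8+ cells, 514 became 299 without the trend, 956 with DESeq2, 884 in the joint fit, 2305 with the replicate block and 233 to 486 with 1 library left out. KO DP against KO CD8+ cells gave 1 gene, and 3 with DESeq2. KO DP against KO CD4+ cells gave 237, and 124 without the trend, 728 with DESeq2, 1453 in the joint fit, 860 with the block and 84 to 279 with 1 library left out. The interaction gave 2, and 7 with no filter, 0 without the trend, 1 with edgeR, 21 with DESeq2, 173 with the replicate block and 0 to 5 with 1 library left out.

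Of the 6 Treg genes, KO against WT CD4+ cells gave 0 calls and 1 with DESeq2 (*Ikzf2*), and 0 to 1 with 1 library left out, as in CD8+ cells. WT CD4+ against CD8+ cells gave 4, and 2 at a minimum mean of 50, which leaves out the lower genes, and 4 to 5 with 1 library left out. KO CD4+ against CD8+ cells gave 2, and 1 at a minimum mean of 50, 0 without the trend, 1 with edgeR, 4 with the block and 0 to 2 with 1 library left out. KO DP against CD4+ cells gave 1, and 0 at a minimum mean of 50, at a common 75th percentile or with edgeR, 3 with DESeq2, 4 in the joint fit, 2 with the replicate block and 0 to 2 with 1 library left out. Between subsets the replicate block added calls for *Ikzf4* and *Gpr83* (KO CD4+ against CD8+) and *Ikzf2* (DP against CD4+) and changed no other call of these genes. Where no construction of the alternative shows it, the cause was not tested.

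Signs turned for differences that were not called. In KO against WT CD4+ cells, *Ikzf4* came to 0.051 after quantile normalization, *Lrrc32* to -0.044 with the block and -0.047 to 0.74 with 1 library left out, and *Ctla4* to -0.0089 to 0.34. *Nrp1* ran from -0.17 to 0.44 in KO CD4+ against CD8+ cells, and from -0.25 to 0.36 in DP against CD4+ cells (-0.0055 with edgeR, -0.0065 with DESeq2). *Ikzf2* in DP against KO CD8+ cells came to 0.10 with edgeR, 0.11 with DESeq2 and -0.47 to 0.21 with 1 library left out. Interaction estimates ran from -0.37 to 0.10 for *Ikzf2*, -1.35 to 0.045 for *Lrrc32* and -0.31 to 0.30 for *Nrp1*.

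With 4 libraries per group, 95% intervals for KO against WT CD4+ cells spanned 1.01 to 3.85 log2 units, widest for *Gpr83*. *Gpr83*, *Itgb8* and, outside CD4+ cells, *Lrrc32* rest on few reads.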

Other observations

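The Ikaros family gene *Ikzf3* (Aiolos), a paralog of Helios and Eos chosen after its values were seen, ran the other way between subsets. It stood at 9798 ± 761 normalized counts in WT CD4+ and 23904 ± 1087 in WT CD8+ cells (log2 difference -1.29, adjusted p = 1.75e-09 with limma, lower in all 4 CD4+ libraries), where *Ikzf2* and *Ikzf4* were higher in CD4+ cells. In KO cells it stood at 10170 ± 1721 in CD4+ and 20757 ± 2356 in CD8+ cells (-1.04, adjusted p = 0.00474), and at 18151 ± 2739 in DP cells, higher than in KO CD4+ cells by 0.84 (adjusted p = 0.0357, at most 0.102 with 1 library left out, and called in 1 of those 8 fits, without DP animal 3). *Ikzf1* (Ikaros), the member of the family called between KO and WT CD8+ cells, stood at 43787 ± 3591 in KO and 36295 ± 857 in WT CD8+ cells (0.27, adjusted p = 0.0305), and remained called in 2 of the 8 fits that left out 1 library, without KO CD8+ animal 1 or 3 (adjusted p up to 0.0948 in the other 6), and in 6 of 10 other alternatives (adjusted p up to 0.711, after quantile normalization).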
